A study of Mus musculus with 23 samples.

Results

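The respiratory chain genes encode the enzyme complexes of the inner mitochondrial membrane that carry electrons to oxygen and make ATP, together with factors that assemble those complexes. They were taken by name from the table that sets Inv1DelCTCF against Inv1: every symbol that begins with Nduf (complex I), Uqcr (complex III), Cox followed by a digit (complex IV) or Atp5 (complex V), plus the 4 genes of complex II, Sdha to Sdhd, without names marked as pseudogenes. This gave 103 of the 34682 genes in the table. An adjusted p stands in the authors' deposited table for 89 of them. The other 14 have none, because the authors' fit leaves it empty for low means. Among all genes with a p-value, the smallest mean with an adjusted p was 113 normalised counts. The largest mean without one, among the same genes, was 112.9. The names were sorted into complexes by their known products, except that Ndufa4 and Ndufa4l2 were left in complex I by name. Cox2, Atp5s and Atp5sl were kept apart from the complexes.

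RNA of distal forelimb from mouse embryos at E11.5 was sequenced in a study of inversions that move limb enhancers of Epha4 into a gene-dense stretch of chromosome 1. Both groups used here carry the first inversion: 3 libraries are labelled Inv1, and 2 are labelled Inv1DelCTCF, a mutant that by its name also lacks a CTCF site, CTCF being a protein that binds DNA and limits loops of chromatin. The labels name polyA RNA and G4 embryonic stem cells, without a clone, litter or number of embryos, and the genotype entry reads only mutant. The other 18 of the 23 libraries are 5 wild type, 4 Inv2, 3 Inv3, 3 Inv4 and 3 Inv1 libraries of stem cells. They give no value for the respiratory chain genes, because none of these is among the 79 genes listed in the tables against wild type. Through those tables the wild type, Inv2, Inv3 and Inv4 libraries served to set the sign of every change, as described under the processing.

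In the chain, complex I takes electrons from NADH and complex II takes them from succinate, and both pass them to ubiquinone. Complex III hands them to cytochrome c and complex IV to oxygen, and complex V uses the proton gradient built along the way to make ATP. Most subunits are encoded in the nucleus and imported, while a few core subunits of complexes I, III, IV and V are encoded by mitochondrial DNA. The nuclear genes are known targets of the transcription factors NRF1, YY1 and the ETS factor GABP. A growing limb bud also draws on glycolysis, so the chain is a general rather than a limb-specific set of genes.

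The letters these 3 factors are known to bind were searched in RefSeq promoter windows of build GRCm38.p6, which run from 250 bases before to 50 bases after a gene's start and were held for 83 of the 103 genes. The NRF1 letters, a palindrome of 10 bases shown in capitals below (GCGCA and its reverse complement), stood in 7 of the 83 genes, or 8.43%, against 1.47% of 17492 coding genes. CCGGAAG (ETS) stood in 22, or 26.5%, against 12.9%, and AAGATGGC (YY1) in 13, or 15.7%, against 3.57%. Both strands were read, and in no window of these genes did ETS and YY1 letters overlap. A match of letters is a description and not a measured binding site. The stretches of 30 bases below are those of the genes that differed between the groups and held NRF1 letters, which are in capitals. Atp5g2 lies at chr15:102671070-102671099 (minus strand), and its letters begin 42 bases before the start. Those of Cox6a1, at chr5:115349101-115349130 (minus strand), begin 162 bases before it. Those of Uqcrc1, at chr9:108936668-108936697 (plus strand), begin 30 bases after it.
Atp5g2: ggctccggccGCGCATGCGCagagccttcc
Cox6a1: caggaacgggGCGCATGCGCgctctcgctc
Uqcrc1: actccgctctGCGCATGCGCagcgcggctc

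Cox10 and Cox20 are shown because both encode assembly factors of complex IV, both held ETS and YY1 letters, and they moved in opposite directions. The first line of each gene has its ETS letters in capitals (in Cox20 on the opposite strand, so they read CTTCCGG) and the second its YY1 letters. The Cox10 stretches are chr11:64079481-64079510 and chr11:64079433-64079462 (minus strand), with letters from 27 bases before and from 21 bases after the start. Those of Cox20 are chr1:178319039-178319068 and chr1:178319067-178319096 (plus strand), with letters from 103 and 75 bases before it.
Cox10: agcgctgggagCCGGAAGtgacaagaggaa
Cox10: ggcgggctagcAAGATGGCggcgcccagga
Cox20: gccagggcgggCTTCCGGacagccccagga
Cox20: gaacgctccctAAGATGGCcgccgccgcgc

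The respiratory chain as a whole moved little between the groups. At an adjusted p under 0.05 (the authors' DESeq2 Wald test with Benjamini-Hochberg adjustment), 9 of the 89 genes were called, 3 higher and 6 lower in Inv1DelCTCF, or 10.1%. The share among all 11218 genes with an adjusted p was 11.7%, with 3.81% higher and 7.89% lower, so the share in the respiratory chain was near the background. The median log2 change was -0.07 (range -0.53 to 0.49), beside -0.01 for all genes. The log2 changes of 33 genes were positive and those of 56 negative, which makes 37.1% positive, beside 46.9% of all genes. At an unadjusted p under 0.05 stood 25 of the 89 genes (28.1%, beside 26.1% of all genes), of which 18 were lower and 7 higher. A further 8 genes had an adjusted p between 0.05 and 0.1, and 7 of them had a negative change.

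The precision of the table sets what these counts can show. At the median SE of the 89 genes, a log2 change of 0.25 was needed for a call. The 95% interval of the change lay inside ±0.50 on the log2 scale (1.41-fold) for 76 of the 89 genes, or 85.4%, beside 80.2% of all genes. It lay inside ±0.25 (1.19-fold) for 33. The table holds no value per library, so the 3 and 2 libraries cannot be shown singly and whether the groups overlap cannot be seen. In their place the level of each group was rebuilt from the deposited mean and fold change. Summed over the members other than Cox2, it was 277246 normalised counts in Inv1 and 263799 in Inv1DelCTCF, a ratio of 0.951. In such bulk tissue, fewer cells of a type and less RNA per cell cannot be told apart. The series' design text calls the libraries biological replicates, but no label ties them to embryos or litters, so each p-value speaks only for the spread among these 5 libraries.

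**Figure D1:**
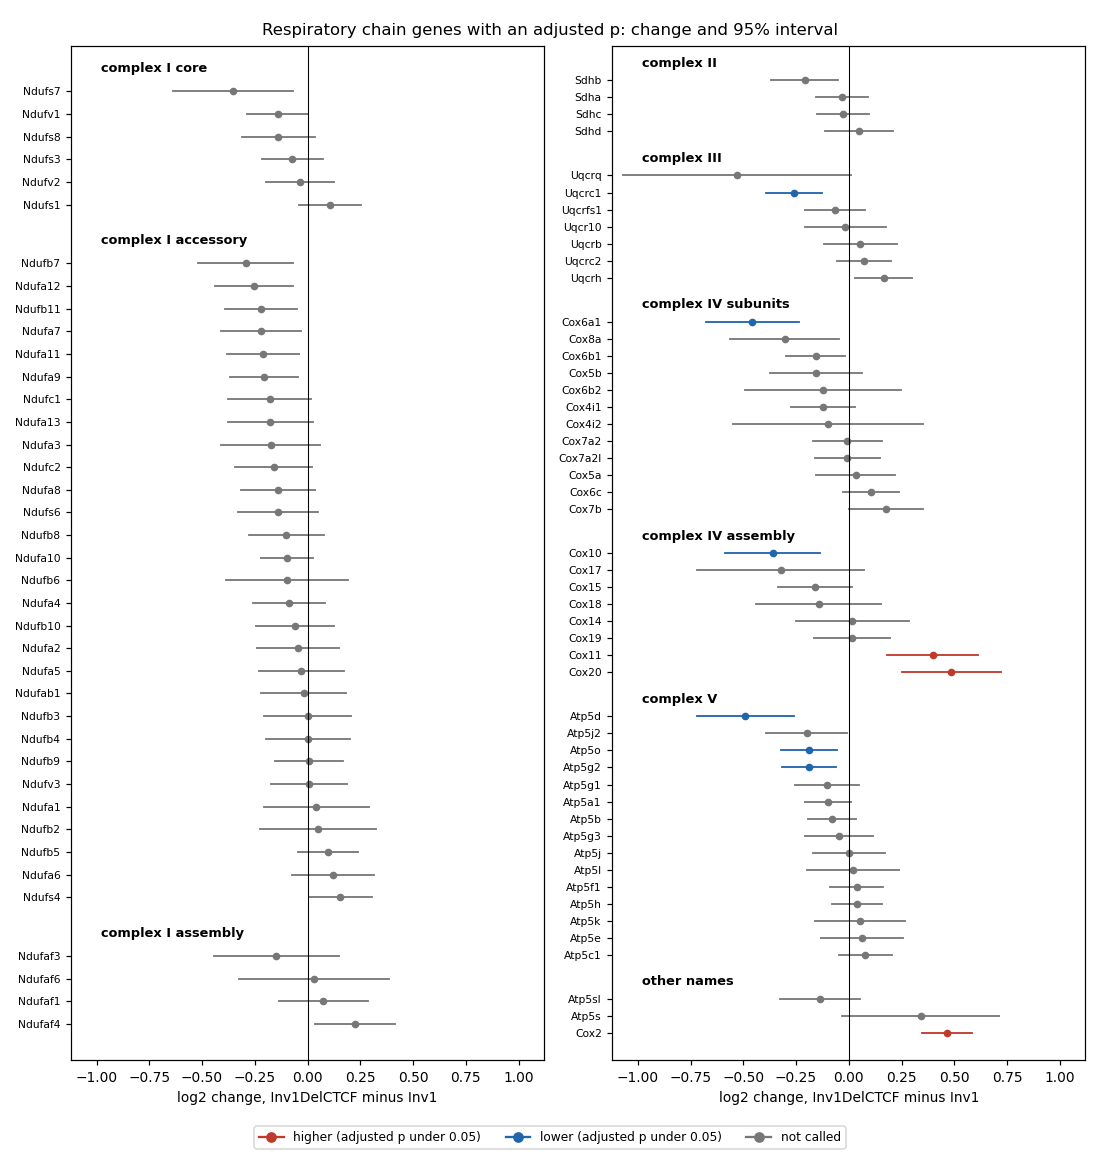
The log2 change between Inv1DelCTCF and Inv1 (x axis, positive is higher in Inv1DelCTCF) for 88 of the 89 respiratory chain genes with an adjusted p, by complex, with bars for the 95% interval from the deposited SE. The 6 lower genes (blue) and 3 higher genes (red) lie in complexes III, IV and V, the complex IV assembly factors and Cox2, and no complex I or complex II gene is coloured.

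Complex I, the largest of the complexes, with its assembly factors held 45 of the 103 genes and 40 of the 89 with an adjusted p. DESeq2 called none of them in either direction, beside 11.7% of all genes. The counts per complex here and below are small, and no test between complexes was made. At an unadjusted p under 0.05 stood 10 of the 40. The log2 changes were positive for 13 and negative for 27, with a median of -0.09. The core subunits carry the flavin and the iron-sulphur clusters that move electrons. Their median was -0.13 over 7 genes. Ndufs7, which holds an iron-sulphur cluster beside the quinone site, had the lowest change of the core, -0.35 (SE 0.145, adjusted p = 0.0906), with a rebuilt level of 1181 normalised counts in Inv1 and 925 in Inv1DelCTCF. Ndufs1, the largest core subunit, had the highest, 0.11 (SE 0.0750, adjusted p = 0.371).

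The accessory subunits of complex I surround the core and are needed for its stability. Of 31 such genes, 29 were tested, with a median change of -0.10, 9 positive and 20 negative. Ndufb7 had the lowest change, -0.29 (SE 0.115, adjusted p = 0.0746), and Ndufs4 the highest, 0.16 (SE 0.0772, adjusted p = 0.175). Ndufa2 had the highest level per kb of this class, 3074, and a change of -0.05 (adjusted p = 0.809). Ndufa4, which carries a complex I name but is known today as a subunit of complex IV, was at -0.09 (adjusted p = 0.548). Ndufs5 is listed at 0 in the table, so nothing can be read from its row.

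Complex I assembly factors act before the complex is finished and are not part of it. Of the 7 rows, 4 were tested, with a median change of 0.05. Ndufaf4 had the highest change, 0.22 (SE 0.0967, adjusted p = 0.110), Ndufaf3 the lowest, -0.15 (SE 0.151, adjusted p = 0.562), and Ndufaf1 the highest level per kb, 499.9, with a change of 0.07 (SE 0.107). Ndufaf5 had a mean of 73.5 normalised counts and Ndufaf2 of 1.74, without an adjusted p. Ndufaf7 is listed at 0, and as for Ndufs5 nothing can be read from its row.

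Complex II, succinate dehydrogenase, is the one complex made of nuclear subunits alone, and it is also an enzyme of the tricarboxylic acid cycle. DESeq2 called none of its 4 genes, and 1 had an unadjusted p under 0.05. Sdhb, the iron-sulphur subunit, had a rebuilt level of 3796 normalised counts in Inv1 and 3285 in Inv1DelCTCF, a log2 change of -0.21 (SE 0.0808, adjusted p = 0.0691). Sdha, the flavin subunit, was at -0.03 (adjusted p = 0.784). The membrane anchors Sdhc and Sdhd were at -0.03 (adjusted p = 0.838) and 0.05 (adjusted p = 0.756). The 95% intervals of Sdha, Sdhc and Sdhd lay inside ±0.25.

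In complex III, 1 of 7 tested genes was called (14.3%, beside 11.7% of all genes). Uqcrc1, a large core protein on the matrix side of the complex, had a rebuilt level of 6499 normalised counts in Inv1 and 5431 in Inv1DelCTCF and fell by 0.26 in log2 (SE 0.0676, adjusted p = 0.00388). Uqcrq, a small subunit next to cytochrome b, had the lowest change of all 89 genes, -0.53, but also the largest SE, 0.276, and did not pass (adjusted p = 0.201). Uqcrh, the hinge protein that helps cytochrome c dock, had the highest change of the complex, 0.17 (SE 0.0681, adjusted p = 0.0920). The median of the 7 was -0.02. The subunit Uqcr11 has rows under its present and its older name, Uqcr, with means of 1.08 and 13.2 normalised counts and no adjusted p. The level of this gene cannot be read from either row alone.

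Among the structural subunits of complex IV, cytochrome c oxidase, other than Cox2, 1 of 12 tested genes was called (8.33%, beside 11.7% of all genes). Cox6a1, a small membrane subunit, had a rebuilt level of 2765 normalised counts in Inv1 and 2014 in Inv1DelCTCF and fell by 0.46 in log2 (SE 0.113, adjusted p = 0.00200). Cox8a was at -0.30 (SE 0.131, adjusted p = 0.112) and Cox6b1, which faces cytochrome c, at -0.16 (adjusted p = 0.135). Cox7b had the highest change, 0.18 (SE 0.0893, adjusted p = 0.188). Changes near 0 were seen for Cox7a2 (-0.01, adjusted p = 0.966) and Cox7a2l (-0.01, adjusted p = 0.966), the latter known to hold complexes III and IV together in supercomplexes. The median of the 12 was -0.11. Cox7c, with a mean of 109.5 normalised counts, had a log2 change of 0.72 (SE 0.239, unadjusted p = 0.00246) but lay just under the level at which the authors' fit gives an adjusted p. Of the 50-base words in its longest transcript, 27.9% also occur in 3 other genes.

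The assembly factors of complex IV hold 3 of the 9 called genes, in both directions. That is 37.5% of those tested, beside 11.7% of all genes. Cox20, a chaperone of the newly made subunit Cox2, had a rebuilt level of 621 normalised counts in Inv1 and 869.7 in Inv1DelCTCF and rose by 0.49 (SE 0.12, adjusted p = 0.00200). Cox11, which delivers copper to the complex, went from 505.9 to 666.4 and rose by 0.40 (SE 0.110, adjusted p = 0.00672). Cox10, which makes heme O on the way to the heme A of the complex, went from 1028 to 801 and fell by 0.36 (SE 0.115, adjusted p = 0.0234). The 8 tested assembly factors had a median of -0.06, with 4 positive and 4 negative. The calls of Cox20 and Cox11 are uncertain as to the gene: 90.5% of the 50-base words in the longest Cox20 transcript also occur in Cox20b or Hnrnpu, and 50.5% of those of Cox11 in 4 other genes, so reads could have been lost or shared between them. For Cox10 the share was 0.0349%.

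The stretch before the start of Cox20 was rich in G and C, 66.5% over chr1:178318903-178319129 (plus strand, GRCm38.p6), with 19 CpG, although the transcript itself had 41.5%. The bases are shown because this is the called nuclear gene with the largest rise and the stretch holds both sets of letters given earlier, in capitals.
Cox20: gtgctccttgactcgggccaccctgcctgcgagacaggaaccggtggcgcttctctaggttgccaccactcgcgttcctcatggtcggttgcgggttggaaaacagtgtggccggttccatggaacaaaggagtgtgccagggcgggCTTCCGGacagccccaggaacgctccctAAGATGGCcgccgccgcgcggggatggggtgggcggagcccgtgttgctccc

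Complex V, the ATP synthase, had 3 called genes of 15 tested, all lower. That is 20%, beside 11.7% of all genes called and 7.89% called lower. Atp5d, the delta subunit of the rotating stalk, had a rebuilt level of 3601 normalised counts in Inv1 and 2565 in Inv1DelCTCF and fell by 0.49 in log2 (SE 0.117, adjusted p = 0.00134). Atp5o, the oligomycin sensitivity protein that ties the catalytic head to the outer stalk, went from 5926 to 5196 and fell by 0.19 (SE 0.0678, adjusted p = 0.0462). Of the 50-base words in its longest transcript, 34.9% also occur in Gm15976. Atp5g2, which encodes the c subunit of the rotor ring, went from 6328 to 5553 and also fell by 0.19 (SE 0.0654, adjusted p = 0.0384). The calls of Atp5o and Atp5g2 were lost when p-values were adjusted over every row that has one, or when the median change of all genes was subtracted. The other genes for the same c subunit were Atp5g1, at -0.10 (adjusted p = 0.414), and Atp5g3, at -0.05 (adjusted p = 0.771). Atp5b, the catalytic beta subunit, was at -0.08 (SE 0.0584, adjusted p = 0.405), with an interval inside ±0.25. Atp5c1, the gamma subunit that turns within the head, had the highest change, 0.08 (adjusted p = 0.452). The median of the 15 was -0.05, with 7 positive and 8 negative.

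The row named Cox2 stands apart from the nuclear genes in level and in precision. By RefSeq, apart from letter case, it is the mitochondrial gene COX2, which encodes a copper-bearing subunit of complex IV, and not the prostaglandin synthase sometimes given that name, since Ptgs2 has a row of its own with a mean of 1.72 normalised counts. Cox2 had a mean of 89464 normalised counts, with a rebuilt level of 77637 in Inv1 and 107205 in Inv1DelCTCF. It rose by 0.47 (SE 0.0603, adjusted p = 2.26e-11), or 1.38-fold (95% interval 1.27 to 1.5). Without it, 8 of 88 genes were called, 2 higher and 6 lower, and the median stayed at -0.07. All of the 50-base words of its transcript also occur in Gm13341 or Gm28661, annotated by GENCODE as pseudogenes on nuclear chromosomes. Of the 13 mitochondrially encoded subunits listed for comparison, mt-Nd4, a proton-pumping subunit of complex I, has a row under that name, and it rose by 0.46 (SE 0.0912, adjusted p = 6.20e-05). After the GC and length trend it was at 0.27 and no longer called (adjusted p = 0.0673). A row named Cytb, found after the values were seen, matches the mitochondrial cytochrome b of complex III in the same way as Cox2. Cytb rose by 0.57 (SE 0.0756, adjusted p = 8.52e-11), and after the GC and length trend it was at 0.40 (adjusted p = 3.13e-05). Why the mitochondrially encoded rows rose was not tested. The remaining names, Atp5s and Atp5sl, belong to no complex V subunit class used here, and Atp5sl was at -0.14 (adjusted p = 0.377).

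**Figure D2:**
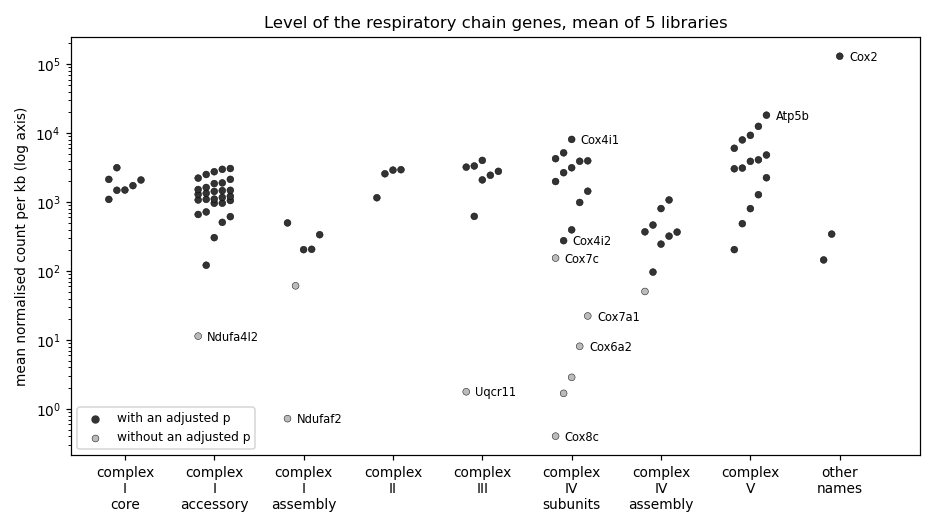
The mean normalised count of the 5 libraries per kb of the longest transcript (y axis, log scale) for the respiratory chain genes by class, dark with and grey without an adjusted p. Ndufs5 and Ndufaf7 (listed at 0) and the older name Uqcr (no length) are not drawn. The point of Uqcr11 thus leaves out that gene's row under its older name. Cox2 lies highest, at 130795, and Cox8c lowest of those drawn, at 0.404.

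Several subunits have a widespread form and another known from muscle, testis or other tissues, and in these limb buds the widespread form was the higher in each set where such a pair exists. Per kb of transcript, Cox4i1 had a mean level of 8134 normalised counts and Cox4i2, a form known from lung, 276. Cox6a1 had 3975 and Cox6a2, the form of heart and skeletal muscle, 8.12, a ratio of 490. Cox7a2 had 3920, Cox7a2l 3152 and the muscle form Cox7a1 22.3. Cox8a had 4271, the muscle form Cox8b 2.88 and the testis form Cox8c 0.404. Cox7b had 2674 and Cox7b2 1.69, while Cox6b1 had 5192 and the testis form Cox6b2 396. Ndufa4 had 2993 and Ndufa4l2 11.4. The muscle and testis forms other than Cox6b2, and Cox7b2 and Ndufa4l2, had no adjusted p. The tested pair members Cox4i2 and Cox6b2 had changes of -0.10 (SE 0.231, adjusted p = 0.831) and -0.12 (SE 0.188, adjusted p = 0.723). Among the c subunit genes of complex V, Atp5g3 had 9310, Atp5g2 7992 and Atp5g1 487, the last divided by a longest transcript of 4715 bases. The highest levels of nuclear genes were those of the catalytic head, Atp5b at 18261 and Atp5a1 at 12570.

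The changes of the respiratory chain genes followed the base composition of their transcripts, and so did those of genes at large. Over the 89 genes, GC content of the longest transcript and log2 change were correlated with a Spearman coefficient of -0.53 and a Pearson coefficient of -0.58. Across 10869 genes of the table with a known transcript the values were -0.52 and -0.46. These are correlations across genes that share the same 5 libraries, and genes are not independent replicates. With transcript length the Spearman correlation was 0.04 for the members and 0.08 for all genes. With the members cut by GC content into 3 parts, the lowest (36.96% to 48.1%, 30 genes) had a median change of 0.04, with 20 positive and 10 negative. The middle one (48.4% to 52.4%, 29 genes) had -0.05, with 9 positive and 20 negative. The highest (52.5% to 63.3%, 30 genes) had -0.14, with 4 positive and 26 negative. All genes cut at the same inner bounds had medians of 0.07, -0.03 and -0.13. Their lowest and highest parts were wider than those of the members, starting at 31.0% and ending at 71.3%. Of the 6 lower genes, 5 lay in the highest and none in the middle one. Among all genes, 652 of the 3847 in the highest range were lower and 146 of the 2514 in the middle one.

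**Figure D3:**
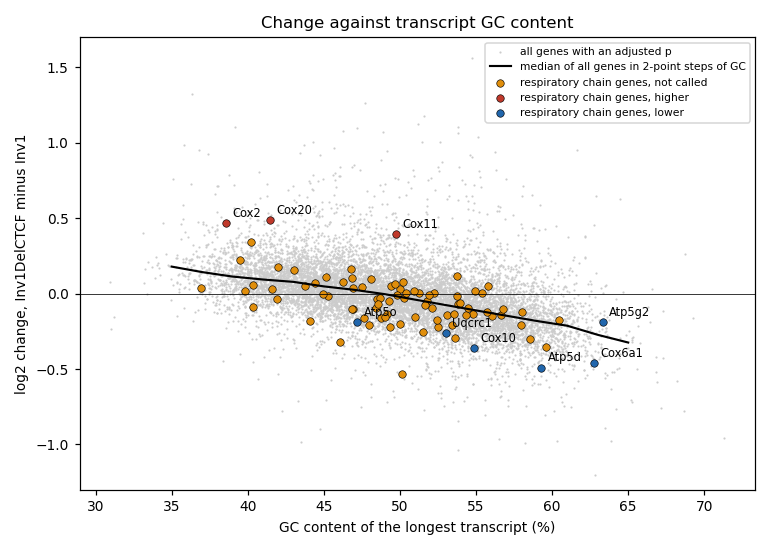
The log2 change between Inv1DelCTCF and Inv1 (y axis) against the GC content of the longest transcript in percent (x axis) for the same 88 respiratory chain genes (large points, red higher, blue lower, orange not called) and all other genes with an adjusted p (grey), with the median of all genes in steps of 2 percentage points (line). The respiratory chain genes spread around the line, from above 0 at low GC content to below 0 at high GC content.

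When a trend over GC content and length, fitted to all genes, was subtracted, the calls over all genes went to 3.94% (1.97% in each direction) and those of the respiratory chain to 3 of 89. With GC content and length both in the trend, Cox11 was at 0.40 (adjusted p = 0.0132), Cox2 at 0.28 (adjusted p = 6.57e-04) and Atp5o at -0.24 (adjusted p = 0.0215). The calls of the other 6 were lost under the same trend: Atp5d was at -0.30 (adjusted p = 0.123), Cox6a1 at -0.20 (adjusted p = 0.358), Cox10 at -0.26 (adjusted p = 0.197), Uqcrc1 at -0.19 (adjusted p = 0.0776) and Cox20 at 0.34 (adjusted p = 0.0854). Atp5g2, whose transcript has the highest GC content of the 89, 63.3%, turned to 0.08 (adjusted p = 0.561). The median of the members went from -0.07 to -0.04, that of the complex I core from -0.13 to -0.04 and that of the complex IV subunits from -0.11 to -0.01. A trend over length alone left 10.4% of all genes called, 4.64% higher and 5.73% lower, and under it Atp5o (-0.13, adjusted p = 0.200) and Atp5g2 (-0.14) lost their calls. The cause of the GC relation was not tested. The 6 tested genes with NRF1 letters in their promoter windows had a median change of -0.20, beside -0.07 for the 67 without. Their transcripts had a median GC content of 56.9%, beside 49.8%. Of the 6, 3 were called, all lower (Atp5g2, Cox6a1 and Uqcrc1), and all 3 calls were lost under the GC and length trend. With ETS letters 3 of 20 tested genes were called, and with YY1 letters 2 of 13. Over all tested genes 11.7% were called before the trend, and the share among all genes with these letters was not counted.

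Other genes of mitochondrial metabolism were counted from fixed lists in the same table. Of 33 tested subunits, carriers and assembly factors of the chain outside the names above, 2 were called. Cyc1, the cytochrome c1 of complex III, fell by 0.32 (SE 0.0804, adjusted p = 0.00231), and Usmg5, a small complex V subunit, rose by 0.29 (SE 0.0888, adjusted p = 0.0168). After the GC and length trend both calls were lost, with Cyc1 at -0.10 (adjusted p = 0.598) and Usmg5 at 0.19 (adjusted p = 0.242). The median of this list was 0.00. In the tricarboxylic acid cycle, 3 of 16 were lower, among them Ogdh of the oxoglutarate dehydrogenase (-0.20, SE 0.0604, adjusted p = 0.0181). None of 14 regulators of mitochondrial gene expression was called by DESeq2, and 5 had an unadjusted p under 0.05. Of 73 mitochondrial ribosomal proteins 5 were lower, among them Mrpl38 (-0.40, adjusted p = 0.00399) and Mrpl2 (-0.35, adjusted p = 0.00610), and of 17 genes of protein import and the outer membrane 3 were lower, among them Timm13 (-0.35, adjusted p = 0.0171) and Timm23 (-0.30, adjusted p = 0.0296). After the GC and length trend, of the genes named in these lists Timm23 kept its call (-0.31, adjusted p = 0.0499), while Ogdh, Mrpl38, Mrpl2 and Timm13 did not.

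Lists of other abundant genes give the scale of these counts. Of 74 cytosolic ribosomal proteins 17 were lower and 3 higher, with a median of -0.11, and the lowest adjusted p-values were those of Rpl37 (-0.45, adjusted p = 2.94e-04) and Rpl10 (-0.31, adjusted p = 8.82e-04). Of 14 proteasome subunits 3 were lower, with a median of -0.07, led by Psmb5 (-0.28, adjusted p = 0.0379) and Psmb6 (-0.23, adjusted p = 0.0461). Glycolysis had the lowest median of the lists, -0.24 over 16 genes, with 2 lower, 1 higher and 5 at an unadjusted p under 0.05. Its changes were less precise, with a median SE of 0.173, beside 0.0922 for the respiratory chain genes. Pkm, the pyruvate kinase, fell by 0.45 (SE 0.107, adjusted p = 0.00138), while Gapdh rose by 0.31 (SE 0.0753, adjusted p = 0.00146). A separate row named Pkm2, also counted in the list, was at -0.04 (adjusted p = 0.928). Rpl37, Rpl10 and Gapdh were also called after the GC and length trend, while Psmb5, Psmb6 and Pkm were not. No test between lists was made.

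**Figure D4:**
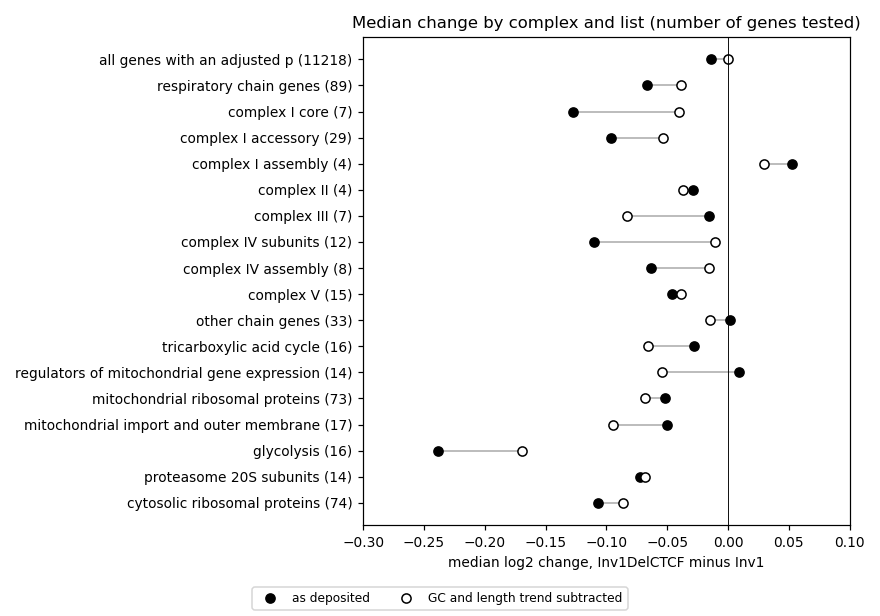
The median log2 change between Inv1DelCTCF and Inv1 (x axis) of all genes, of the respiratory chain and its classes and of the comparison lists, as deposited (filled) and after subtraction of the GC and length trend (open), with the number of genes tested in brackets. The respiratory chain (median SE 0.0922) moves from -0.07 to -0.04, and glycolysis (median SE 0.173) lies lowest under both.

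The markers of distal forelimb mesenchyme were present in the table, with means of 25893 normalised counts for Prrx1, 19242 for Hoxd13 and 7273 for Tbx5. Their rebuilt levels summed to 75162 in Inv1 and 74625 in Inv1DelCTCF, with 2 of 9 lower, Hoxa13 (-0.30, adjusted p = 0.0330) and Hoxd12 (-0.25, adjusted p = 0.0133). Markers of limb ectoderm summed to 8708 and 7083, with 3 of 6 lower, and those of endothelium to 6676 and 6026, with 1 of 4 lower. Red blood cell markers summed to 86933 and 81748, with 2 of 5 tested lower and Hba-a1, Hba-a2 and Hbb-b1 listed at 0. Markers of heart and skeletal muscle fibre, tissues rich in mitochondria, summed to 3498 and 5707, with none of the 2 tested called. Those of muscle precursors summed to 2193 and 2767, of nerve to 697 and 775 and of macrophages to 754 and 913, with none called, while Adgre1 was listed at 0. Hindlimb markers summed to 694 and 612, with the 1 tested not called. Liver markers, none of which has an adjusted p, summed to 441 in Inv1 and 18.4 in Inv1DelCTCF, most of it Afp (-6.17, SE 2.39). Afp had a mean of 240.1 normalised counts, above the 113 from which other genes have an adjusted p, so a low mean is not why it has none. Which libraries carried its counts cannot be seen without a value per library, so these sums are no measured group difference. The part of these cell types in the changes of the respiratory chain genes was not tested.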

How the data were processed

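The authors deposited tables of their own comparisons without a value per library, so depth per library is unknown. Per the file headers the deposited table gives a mean normalised count (a signal pooled over the 5 libraries), a log2 fold change with its SE, a Wald score, and a p-value and adjusted p-value. STAR, DESeq2 and mm9 (a mouse build) are named in the submitters' processing notes, and versions are not given in the sources used here. The means of the table sum to 3.02e+07, of which the respiratory chain genes take 1.20% (0.900% without Cox2).

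The headers do not name the numerator. Levels of 49 genes (minimum mean 300), rebuilt from the tables against wild type, left a median residual of 0.0124 on the log2 scale with positive values read as higher in Inv1, against 0.107 or more under the other 3 conventions, and every sign was reversed here, so a positive value means a higher level in Inv1DelCTCF. Of the 49 genes, 46 lay closer to this sign than to the opposite one. With a minimum mean of 20, 56 of 67 did, and Ptprn was among those that did not (residual 0.37 against -0.24). Group levels were rebuilt from the mean, the fold change and the 3 and 2 libraries, and 95% intervals are normal, from the SE.

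The members and lists were chosen with earlier results of these data known. Named genes are the called ones, the highest and lowest change and highest level of each class, complex II, isoform sets and up to 2 called genes per list; of the genes this takes, 2 are not reported here. Members were matched to the longest GENCODE transcript (GRCm38) for length, GC content and shared 50-base words: 100 by symbol, 1 by letter case and 1 by an older symbol. The trend has terms up to the power 3 and was fitted by weighted least squares. It was run on simulated data with a trend of a form that the fit contains and log2 changes of 1. Those changes exceed those of the tested members, so the run cannot show how well smaller changes are recovered. Promoter sequences are from RefSeq (GRCm38.p6). The scripts ran on Python 3.11.15 with SciPy 1.17.1, numpy 2.4.6, pandas 2.3.3 and, for plots, matplotlib 3.10.9. Alternatives were thresholds of 0.01 and 0.1, adjustment over all rows with a p-value, subtraction of trends or of the median, a minimum mean of 100 and a minimum log2 change of 0.25.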

Additional observations from a re-analysis of the deposited data

How the results depend on the processing

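No paired analysis was possible because the tables hold no value per library, although the labels of the groups share replicate numbers, and for the same reason no library could be left out. With 6 respiratory chain genes lower at the threshold of 0.05, the count was 3 at a threshold of 0.01 (3.54% of all genes were lower there), 13 at 0.1 (11.3%), and 1 after subtraction of the GC trend with (1.97%) or without length (2.31%). At 0.1 the calls were 1 in the complex I core, 5 among its accessory subunits, 1 in complex II and 2 in complex III, while at 0.01 complex V kept a count of 1. After the GC trend, with or without length, complexes III and IV (subunits) had 0 calls and complex V had 1, and with both trends the complex IV assembly factors had 1 and mt-Nd4 was lost, leaving 0. Length alone gave 2 in complex III and 1 in complex V, and complex V also had 1 with the median subtracted or with adjustment over every row. These counts per complex are in either direction. Over all genes the share called in either direction was 17.4% at 0.1 and 5.13% at 0.01. It was 3.94% after the GC and length trend, 4.39% after GC alone and 10.4% after length alone. With the median subtracted it was 11.0%, and with adjustment over every row 4.2%.

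Atp5g2 turned to 0.0830 with the GC and length trend and to 0.0758 with the GC trend alone. Uqcrh passed at 0.22 after the length trend alone. The median of the complex I core moved to -0.0404 under the GC and length trend and -0.0362 under GC alone. That of the complex IV subunits moved to -0.00751 over all rows with a p-value, to -0.0110 under the GC and length trend and to 0.0027 under GC alone. That of Cox2, Atp5s and Atp5sl moved to 0.20 and 0.23.

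Among the comparison lists, the calls at 0.01 were 1 for the other chain genes, 1 for the tricarboxylic acid cycle, 2 for mitochondrial and 9 for cytosolic ribosomal proteins, and 0 for import and the proteasome. At 0.1 they were 5 for the other chain genes and 3 for the regulators. After either GC trend they were 0 for the other chain genes and the cycle, 1 for the regulators, 2 for mitochondrial and 10 for cytosolic ribosomal proteins, 1 for glycolysis and 0 for the proteasome, and for import 1 with length and 0 without. Length alone gave 12 for cytosolic ribosomal proteins and 0 for import and the proteasome. Adjustment over every row gave 1 for import and 0 for the proteasome, which also had 0 with the median subtracted. The shares of all genes given above for each setting apply to these lists too. The cause was not tested. The other 148 counts and medians moved within 1.5 times or the spread of the class.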
